A study of Mus musculus with 12 samples.

Results

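Signal transducers and activators of transcription (STATs) and the feedback genes that restrain them were followed in bone marrow-derived macrophages (BMDMs). The members are 6 STAT genes, *Stat2*, *Stat3*, *Stat4*, *Stat5a*, *Stat5b* and *Stat6*, and 3 genes of the SOCS family, *Socs1*, *Socs3* and *Cish*. They were found by the transcript accession of each non-control probe, which gave 9 of 32301 genes or transcripts and 12 of 41174 probes. *Stat5b* had 2 probes, *Stat6* had 3 and each of the other 7 genes had 1. All 9 genes entered the test, since their probes were well above background on 12 of 12 arrays, so the filter on dim probes removed no member.

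The study asked how activation of the transcription factor Nrf2 changes macrophage responses. Nrf2 was activated by loss of *Keap1*, which encodes the adaptor that keeps Nrf2 low. Wild-type (WT) mice and KpCKO mice (Keap1 flox/flox::LysM-Cre), both C57BL/6 and 8 weeks old, gave bone marrow that was grown with M-CSF for 7 days. The BMDMs were then left untreated (Con), given LPS and IFNγ for 6 h (M1) or given IL-4 for 6 h (M2). These treatments and genotypes make 6 groups of 2 arrays. Marrow of 1 WT and 1 KpCKO mouse was grown side by side in each of 2 cultures, the first pair being male and the second female, so culture and sex cannot be told apart. Cre is driven from the lysozyme M locus, which acts in myeloid cells, and any KpCKO cell without Cre keeps the floxed *Keap1* gene. Mice with that floxed gene served elsewhere in the study as *Keap1* knockdown mice.

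STAT proteins wait in the cytoplasm until a cytokine receptor and its Janus kinases phosphorylate them, after which they pair and bind DNA. Type I interferons work through a complex that holds STAT2, IL-6 and IL-10 work through STAT3, IL-12 through STAT4, GM-CSF and related cytokines through STAT5, and IL-4 through STAT6. *Socs1*, *Socs3* and *Cish* encode proteins that are made after the signal and damp it at the kinase or the receptor, so their mRNA is often read as a mark of recent STAT activity. The arrays measured mRNA only, not phosphorylated STAT protein.

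Of the 9 members, 6 hold a STAT, interferon or antioxidant response motif near their start. Each single motif lies in 3.43% to 17.7% of all promoter windows, and the share with any of them was not counted, so the 6 is a description only. The stretches around those matches are printed to show where in each gene the letters lie. Promoter windows of 250 bases before to 50 after each start, from RefSeq on GRCm38.p6, were found for all 9 members, 12 windows in all. Each sequence runs 5′ to 3′ on the strand of the gene with the matches in capitals:
Cish, chr9:107296619-107296688, + strand: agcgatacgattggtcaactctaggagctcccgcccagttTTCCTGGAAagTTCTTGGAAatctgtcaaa
Socs3, chr11:117969472-117969560, − strand: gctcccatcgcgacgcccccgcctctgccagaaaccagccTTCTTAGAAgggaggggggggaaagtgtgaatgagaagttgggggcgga
Socs1, chr16:10785564-10785659, − strand: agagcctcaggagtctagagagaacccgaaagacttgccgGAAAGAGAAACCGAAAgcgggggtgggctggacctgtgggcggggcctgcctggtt
Stat2, chr10:128270248-128270337, + strand: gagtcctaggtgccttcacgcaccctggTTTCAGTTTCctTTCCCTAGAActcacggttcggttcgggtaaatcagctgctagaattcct
Stat4, chr1:52008103-52008192, + strand: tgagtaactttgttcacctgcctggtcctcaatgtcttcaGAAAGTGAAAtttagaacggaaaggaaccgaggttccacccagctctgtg
Stat3, chr11:100939633-100939721, − strand: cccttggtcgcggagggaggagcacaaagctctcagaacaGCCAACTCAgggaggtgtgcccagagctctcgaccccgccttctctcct

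*Cish* holds a pair of STAT sites (TTCNNNGAA), at +1 to +9 and +12 to +20 from its start, and *Socs3* holds 1, at −154 to −146. Among 32817 promoter windows of the same length, 8.29% hold this motif on either strand. The interferon-stimulated response element core (GAAA, any 2 bases, GAAA), found in 3.43% of windows, lies in *Socs1* as 2 overlapping copies at −83 to −74 and −77 to −68, in *Stat2* at −222 to −213 and in 1 of the windows of *Stat4* at −97 to −88. *Stat2* also holds the longer site preferred by STAT6 (TTC, any 4 bases, GAA) at −210 to −201, a motif of 6.94% of windows. In *Stat3* the letters in capitals are an antioxidant response element core (TGAGNNNGC) on the other strand at −141 to −133, found in 17.7% of windows. The form TGACNNNGC, found in 12.4% of windows, was in no member. None of these letters were in the windows of *Stat5a*, *Stat5b* and *Stat6*.

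Levels are log2 intensities relative to the 75th percentile of each array, so 1 unit is a 2-fold step, and values are given in the order culture 1, culture 2. That percentile was an intensity of 548 to 906 on the M1 arrays and 966 to 1166 on the Con and M2 arrays, and 59.4% to 68.1% and 66.4% to 71.5% of probes were well above background. Within M1 the percentile was 757 and 548 in WT against 906 and 787 in KpCKO. It was higher in KpCKO in both cultures, so the genotype differences in M1 depend on this scaling. The mean level of *Keap1* was 3.20 in WT and 1.75 in KpCKO Con, 4.54 and 2.83 in M1, and 2.96 and 1.15 in M2, lower in KpCKO each time. *Nqo1*, a target of Nrf2, was higher in KpCKO by 3.23 in Con, 3.50 in M1 and 3.52 in M2. Of 8 macrophage markers 7 had a probe, and each was well above background on 12 of 12 arrays. Each of the 3 slides held the arrays of 1 stimulus, so a response to a stimulus cannot be told apart from a difference between slides, whereas the genotypes were compared within a slide. On each slide the WT arrays were at positions 1 and 3 and the KpCKO arrays at 2 and 4, so genotype cannot be told apart from position. These are bulk RNA samples, in which fewer cells of a type and less RNA per cell cannot be told apart.

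**Figure D1:**
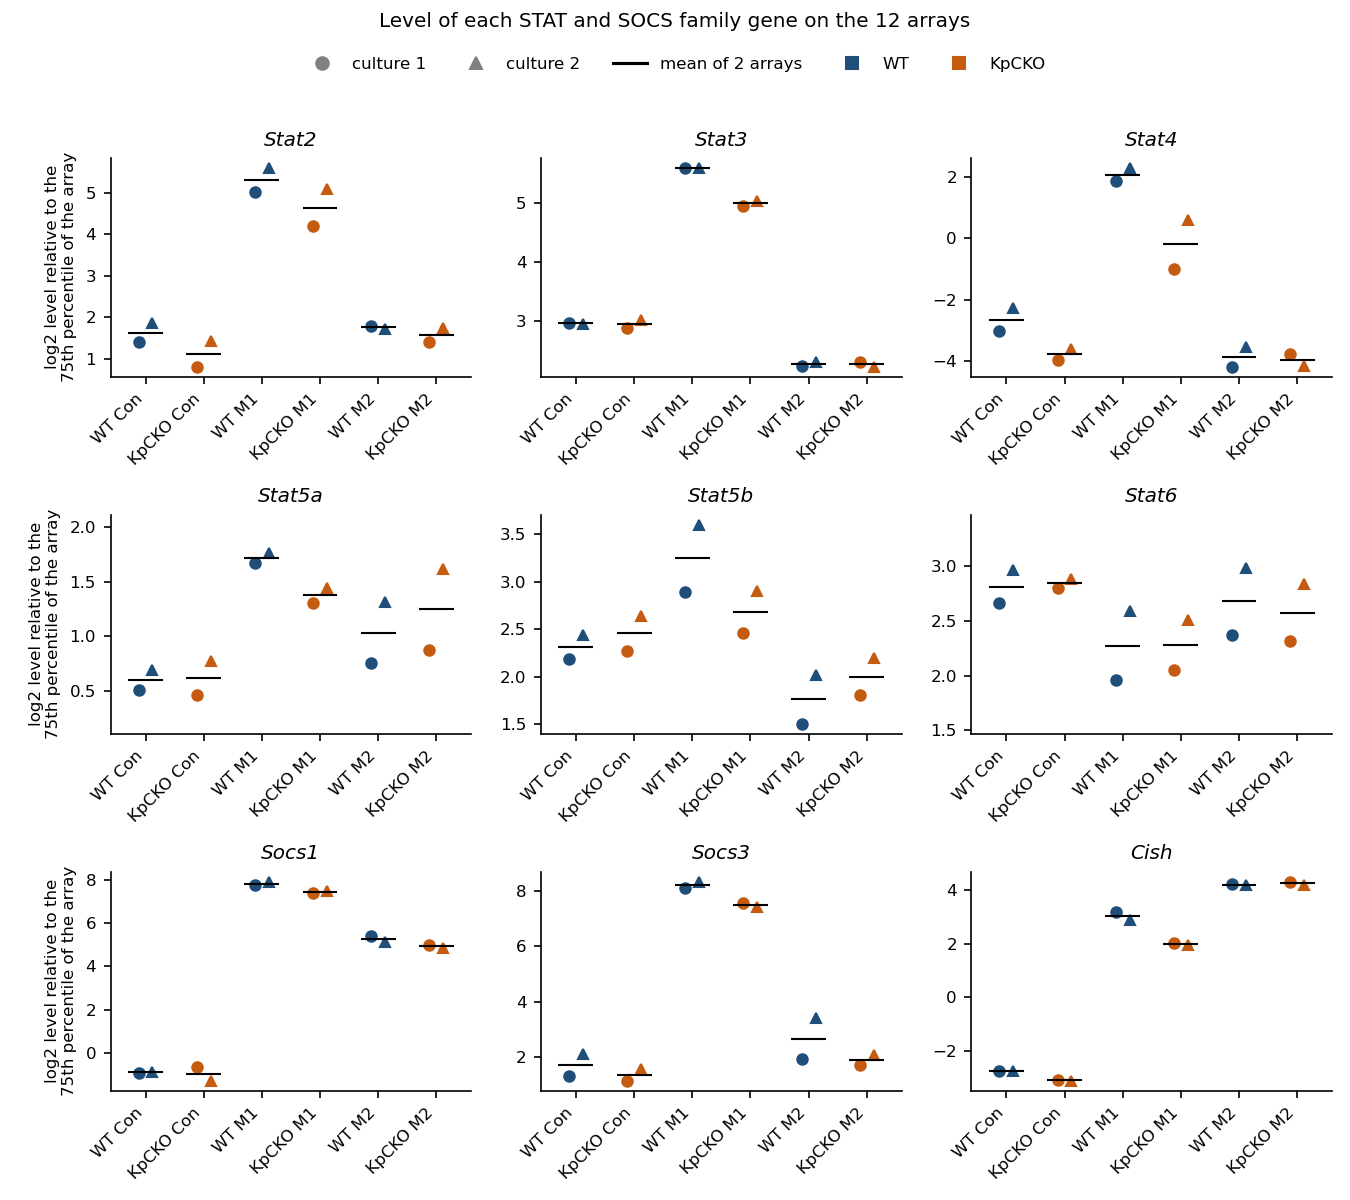
Log2 level of each member above or below the array's 75th percentile (vertical axis) on each of the 12 arrays, with 1 panel per gene. Circles are culture 1, triangles culture 2, lines the mean of 2 arrays, and the vertical axes differ between panels. The *Socs1* points of M1 and M2 lie far above those of Con, the *Cish* points are highest in M2, and the *Stat6* points stay between 1.96 and 2.98.

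In WT BMDMs given LPS and IFNγ, mRNA of all 3 SOCS family genes and of 5 of the 6 STAT genes rose, and *Stat6* fell. Limma's test, adjusted over 22354 genes, was passed by 9 of 9 members, 8 higher and 1 lower, where it called 63.2% of all genes, 34.5% higher and 28.7% lower. The median log2 difference was 3.67 over the members and 0.13 over all genes tested. KpCKO BMDMs gave 7 members higher and 1 lower, with 50.2% of all genes called (24.8% higher and 25.4% lower) and a median of 3.52 against 0.03. Members whose M1 and Con arrays did not overlap were 8 higher and 1 lower in WT, where 43.7% and 35.6% of all genes were so, and 7 higher and 1 lower in KpCKO, where 35.3% and 33.0% were.

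*Socs1*, which encodes an inhibitor of Janus kinases downstream of interferon receptors, had the steepest rise of the members. Its level was −0.92 and −0.91 in WT Con against −0.66 and −1.29 in KpCKO Con, 7.75 and 7.91 in WT M1 against 7.40 and 7.48 in KpCKO M1, and after IL-4 it was 5.40 and 5.13 in WT against 5.01 and 4.85 in KpCKO. The Con, M2 and M1 arrays formed 3 separate levels, and within M1 and within M2 the KpCKO arrays lay below the WT arrays. WT M1 was above WT Con by 8.74 (SE 0.191, limma adjusted p = 1.87e-06), a 428-fold difference. In KpCKO the M1 difference was 8.41 (adjusted p = 2.31e-06), 341-fold.

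*Socs3*, whose product blocks receptors that signal through STAT3, also rose in M1. It was at 1.29 and 2.10 in WT Con against 1.14 and 1.57 in KpCKO Con, 8.12 and 8.34 in WT M1 against 7.59 and 7.41 in KpCKO M1, and after IL-4 it was 1.90 and 3.42 in WT against 1.69 and 2.05 in KpCKO. The M1 arrays stood clear of the rest, the KpCKO M1 arrays lay below those of WT M1, and the Con and M2 groups overlapped in WT. WT M1 exceeded WT Con by 6.54 (SE 0.357, limma adjusted p = 1.48e-05) or 92.8-fold and the KpCKO difference was 6.15 or 70.9-fold.

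*Cish*, which encodes an inhibitor induced by STAT5, was low in untreated cells and rose with both stimuli. Its level was −2.73 and −2.73 in WT Con against −3.08 and −3.10 in KpCKO Con, 3.17 and 2.89 in WT M1 against 2.03 and 1.94 in KpCKO M1, and after IL-4 it was 4.23 and 4.16 in WT against 4.29 and 4.18 in KpCKO. The groups ranked M2, WT M1, KpCKO M1, WT Con and KpCKO Con, and only the WT and KpCKO M2 arrays overlapped in that order. With LPS and IFNγ it rose by 5.76 (SE 0.102, limma adjusted p = 1.79e-06) or 54.1-fold in WT and by 5.07 or 33.6-fold in KpCKO.

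Among the STAT genes, *Stat4*, which carries IL-12 signals and is best known in T and NK cells, had the widest M1 difference. It was at −3.03 and −2.26 in WT Con against −3.97 and −3.59 in KpCKO Con, 1.86 and 2.29 in WT M1 against −0.99 and 0.61 in KpCKO M1, and after IL-4 it was −4.17 and −3.52 in WT against −3.76 and −4.16 in KpCKO. The WT M1 arrays were highest, the KpCKO M1 arrays were next and were further apart than the pair of any other group for this gene, and KpCKO Con and both M2 groups overlapped. The M1 difference was 4.72 (SE 0.397, limma adjusted p = 7.67e-05) or 26.3-fold in WT and 3.59 (adjusted p = 0.000408) or 12-fold in KpCKO. The summed level of 9 T and NK cell markers was 0.11 to 0.30 on the Con and M2 arrays. It was 2.65 and 3.34 in WT M1, and 1.73 and 2.14 in KpCKO M1. *Cd3e* had no value on 1 array of WT M1 and 1 of KpCKO M2, and the sums of those arrays leave it out. Among the markers with a mean in both M1 groups, *Lck* was highest, at 1.41 in WT and 0.46 in KpCKO, against −6.20 in WT Con. *Klrb1c* had −3.00, −3.28 and −6.30 in these 3 groups. The markers did not move as a set. Of 7 tested, limma called 3 higher and 1 lower for the M1 response of WT cells. For that of KpCKO cells it called 2 higher and 0 lower. *Cd2* fell from a mean of −6.0 in WT Con to −7.9 in WT M1, where 0 arrays were well above background. Of the 12 arrays, *Lck*, *Klrb1c* and *Thy1* were well above background on 12, *Nkg7* on 11, *Cd3e* on 10, *Cd2* on 7, *Cd3g* on 6, *Ncr1* on 2 and *Cd3d* on 0. The part of such cells in the *Stat4* level was not tested beyond these values.

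*Stat2*, the subunit of the complex that answers type I interferon, was at 1.41 and 1.86 in WT Con against 0.81 and 1.44 in KpCKO Con, 5.01 and 5.60 in WT M1 against 4.20 and 5.09 in KpCKO M1, and after IL-4 it was 1.79 and 1.72 in WT against 1.40 and 1.75 in KpCKO. The M1 arrays lay above the others, and WT and KpCKO overlapped in each stimulus. M1 cells differed from Con by 3.67 (SE 0.209, limma adjusted p = 1.71e-05) or 12.8-fold in WT and 3.52 or 11.5-fold in KpCKO.

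*Stat3*, through which IL-6 and IL-10 act, varied little between cultures. It was at 2.97 and 2.96 in WT Con against 2.89 and 3.01 in KpCKO Con, 5.60 and 5.60 in WT M1 against 4.96 and 5.04 in KpCKO M1, and after IL-4 it was 2.23 and 2.31 in WT against 2.30 and 2.23 in KpCKO. WT M1, KpCKO M1, Con and M2 formed 4 separate levels from high to low, and WT and KpCKO overlapped in Con and in M2. The M1 difference was 2.63 (SE 0.0930, limma adjusted p = 4.61e-06) or 6.21-fold in WT and 2.05 or 4.14-fold in KpCKO.

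The STAT5 genes, which act behind the receptors of GM-CSF and related cytokines, moved less. *Stat5a* was at 0.51 and 0.69 in WT Con against 0.46 and 0.78 in KpCKO Con, 1.67 and 1.76 in WT M1 against 1.30 and 1.45 in KpCKO M1, and after IL-4 it was 0.75 and 1.32 in WT against 0.87 and 1.62 in KpCKO. Its WT M1 arrays were highest and its Con arrays mostly lowest, with M2 between and overlapping KpCKO M1. The M1 difference was 1.12 (SE 0.178, limma adjusted p = 0.0014) in WT and 0.75 (adjusted p = 0.011) in KpCKO. The call in KpCKO was lost without KpCKO Con replicate 2 (adjusted p = 0.0604), without KpCKO M1 replicate 1 (0.067) and without the replicate block (0.0602). Over 25 alternative settings its adjusted p ran from 0.00523 to 0.169.

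*Stat5b* was at 2.18 and 2.44 in WT Con against 2.27 and 2.64 in KpCKO Con, 2.90 and 3.60 in WT M1 against 2.46 and 2.90 in KpCKO M1, and after IL-4 it was 1.50 and 2.01 in WT against 1.80 and 2.19 in KpCKO. The WT M1 arrays lay above WT Con and overlapped KpCKO M1, and every neighbouring pair in the order of the 6 group means overlapped. The M1 difference was 0.94 (SE 0.121, limma adjusted p = 0.000535) in WT, and 0.57 with quantile normalization. In KpCKO it was 0.23, with an adjusted p of 0.157, although 0.62 with an adjusted p of 0.0241 when the gene's probes were averaged (range over 25 settings 0.0241 to 0.865). A dimmer *Stat5b* probe differed by 2.18 in WT (adjusted p = 0.000292 in limma's fit over probes) and 1.02 in KpCKO (adjusted p = 0.0131), so the probes disagreed on the KpCKO call.

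*Stat6*, the factor of IL-4, was the member that fell in M1. It was at 2.67 and 2.96 in WT Con against 2.80 and 2.89 in KpCKO Con, 1.96 and 2.59 in WT M1 against 2.06 and 2.51 in KpCKO M1, and after IL-4 it was 2.38 and 2.98 in WT against 2.31 and 2.84 in KpCKO. In both genotypes the M1 arrays lay below the Con arrays, the widest gap being in culture 1. The M1 difference was −0.54 (SE 0.149, limma adjusted p = 0.0165) in WT, −0.85 with quantile normalization, and −0.56 (adjusted p = 0.018) in KpCKO. The other *Stat6* probes differed by −0.51 and −0.50 in WT and −0.56 and −0.45 in KpCKO. The WT call was lost without WT Con replicate 1 (adjusted p = 0.101), without WT M1 replicate 1 (0.0909) and without the replicate block (0.171), with a range over 25 settings of 0.00143 to 0.347. The KpCKO call was lost without KpCKO Con replicate 1 (difference −0.35, adjusted p = 0.11), without KpCKO M1 replicate 1 (0.0713), without KpCKO M1 replicate 2 (0.0716) and without the replicate block (0.186), with a range of 0.00298 to 0.277.

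**Figure D2:**
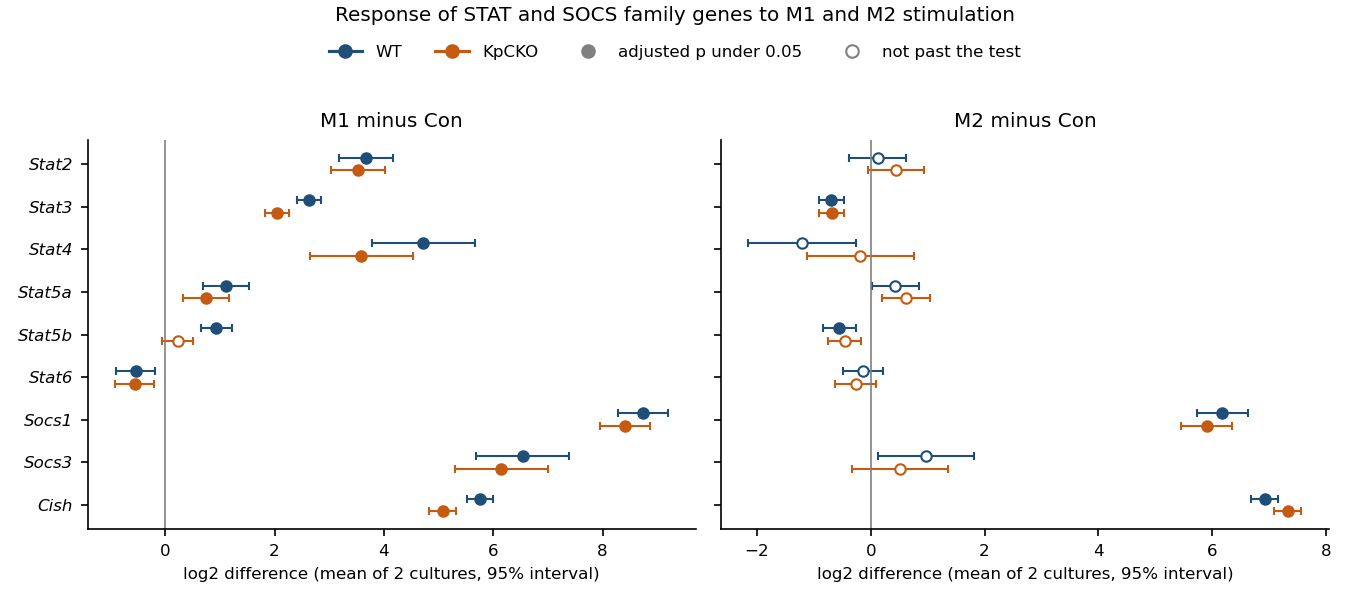
Log2 difference of M1 and of M2 from Con (axis) for each member in WT and in KpCKO BMDMs. Points are means of the 2 cultures, filled where limma's adjusted p was under 0.05, and bars are the 95% interval of the moderated estimate. In M1 8 members lie above 0 in both genotypes and *Stat6* below it, while in M2 *Socs1* and *Cish* lie far from 0.

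The widest differences of the members after IL-4 were those of the feedback genes *Cish* and *Socs1*. In WT M2 the test was passed by 4 of 9 members, *Cish* and *Socs1* higher and *Stat3* and *Stat5b* lower, where 16.8% of all genes were called (8.62% higher and 8.21% lower). In KpCKO M2 it was passed by 3, *Cish* and *Socs1* higher and *Stat3* lower, where 10.2% were called (5.69% higher and 4.55% lower). The median difference over the members was 0.12 in WT and 0.45 in KpCKO, against −0.01 and 0.01 over all genes tested. Arrays of M2 and Con did not overlap for 3 members higher and 3 lower in WT, where 29.1% and 30.4% of all genes were so, and for 4 higher and 2 lower in KpCKO, where 24.4% and 21.5% were.

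*Cish* rose by 6.92 (SE 0.102, limma adjusted p = 1.08e-06) or 121-fold in WT M2 and by 7.32 (adjusted p = 7.27e-07) or 160-fold in KpCKO M2. *Socs1* rose by 6.18 (SE 0.191, adjusted p = 4.6e-05) or 72.5-fold and by 5.90 (adjusted p = 6.3e-05) or 59.8-fold. These feedback genes rose in both polarizing conditions, and on every array *Cish* was higher in M2 than in M1 and *Socs1* higher in M1 than in M2, an order that was not tested and that lies across slides. *Socs3* differed by 0.97 (adjusted p = 0.113) in WT, with 0.62 in culture 1 and 1.32 in culture 2, and by 0.51 (adjusted p = 0.41) in KpCKO. Without WT M2 replicate 1 the WT value was 1.56 and passed the test (adjusted p = 0.0402, range over 25 settings 0.0402 to 0.591).

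*Stat3* fell by 0.69 (SE 0.0930, limma adjusted p = 0.00515) in WT M2 and by 0.68 (adjusted p = 0.00863) in KpCKO M2. The WT call was lost without WT Con replicate 1 (adjusted p = 0.0534, range over 25 settings 0.000977 to 0.143). The KpCKO call was lost without KpCKO Con replicate 2 (0.0703) and without KpCKO M2 replicate 2 (0.0648), with a range of 0.00165 to 0.361. *Stat5b* fell by 0.55 (adjusted p = 0.0249) in WT M2, and differed by −0.46 (adjusted p = 0.0603) in KpCKO M2. The WT call of *Stat5b* was lost without either array of WT Con or of WT M2 (adjusted p between 0.0744 and 0.167) and without the replicate block (0.331), and the dimmer probe differed by −0.22 in WT (adjusted p = 0.583). *Stat4* differed by −1.21 in WT M2 (adjusted p = 0.0835), a value whose adjusted p was 0.0372 without KpCKO M1 replicate 1 or 2 (range over 25 settings 0.0219 to 0.55). *Stat6*, whose protein carries the IL-4 signal, differed by −0.14 in WT M2 (adjusted p = 0.581) and −0.27 in KpCKO M2 (adjusted p = 0.307).

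Between KpCKO and WT, 0 of 9 members passed the test in untreated and 0 of 9 in IL-4-treated cells, where limma called 2.21% and 1.93% of all genes. At an unadjusted p under 0.05, *Stat4*, *Cish* and *Stat2* were lower in KpCKO Con, with −1.14 (95% interval −2.08 to −0.20, adjusted p = 0.254), −0.36 (−0.61 to −0.12, adjusted p = 0.154) and −0.51 (−1.0 to −0.01, adjusted p = 0.342), and in M2 no member was. The widest M2 difference was that of *Socs3*, at −0.79 (−1.64 to 0.05, adjusted p = 0.381), with −0.22 in culture 1 and −1.37 in culture 2. The KpCKO Con arrays lay below both WT Con arrays for *Stat4* and *Cish*, 2 members, where 17.6% of all genes did so. In M2 *Socs1* was the 1 member whose KpCKO arrays lay below both WT arrays (16.8% of all genes), with a difference of −0.34 (−0.79 to 0.11, adjusted p = 0.495). *Cish* in M2 differed by 0.04 (−0.20 to 0.28, adjusted p = 0.925) and *Stat6* by −0.10 (−0.46 to 0.25, adjusted p = 0.842).

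In M1 cells the levels of 4 of 9 members, *Stat4*, *Cish*, *Stat3* and *Stat5b*, were lower in KpCKO than in WT, and no member was higher. Limma called 16.0% of all genes in this comparison, 7.43% higher and 8.58% lower. The median log2 difference was −0.60 over the members and −0.09 over all genes tested. The KpCKO M1 arrays lay below both WT M1 arrays for 6 members, *Stat3*, *Stat4*, *Stat5a*, *Socs1*, *Socs3* and *Cish*, where 30.1% of all genes did so.

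*Stat4* differed by −2.27 (SE 0.397, limma adjusted p = 0.0154) or 4.82-fold lower, with −2.85 in culture 1 and −1.68 in culture 2. *Cish* differed by −1.05 (SE 0.102, adjusted p = 0.00226) or 2.07-fold lower, with −1.15 and −0.95 in the cultures. *Stat3* differed by −0.60 (SE 0.0930, adjusted p = 0.0107) or 1.52-fold lower, with −0.64 and −0.56. *Stat5b* differed by −0.57 (SE 0.121, adjusted p = 0.0273) or 1.48-fold lower, with −0.43 and −0.70, and its dimmer probe by −0.96 (adjusted p = 0.0434 in limma's fit over probes). These 4 genes were lower in KpCKO in both cultures. Of the rest, *Stat2* differed by −0.66 (95% interval −1.16 to −0.17, adjusted p = 0.0734), *Socs3* by −0.73 (−1.58 to 0.12, adjusted p = 0.197), *Socs1* by −0.39 (−0.84 to 0.06, adjusted p = 0.195) and *Stat5a* by −0.34 (−0.76 to 0.08, adjusted p = 0.22), each negative in both cultures. *Stat6* differed by 0.01 (−0.35 to 0.36, adjusted p = 0.976).

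Single arrays decided some of these calls. Without KpCKO M1 replicate 1 only *Cish* passed (1 of 9), with *Stat4* at −1.65 (adjusted p = 0.0649), *Stat3* at an adjusted p of 0.0651 and *Stat5b* at 0.119, and without WT M1 replicate 2 the calls of *Stat4* (0.0681) and *Stat5b* (0.117) were lost. *Stat5b* also lost its call without KpCKO M1 replicate 2 (0.0772), without either WT M2 array (0.0512), and without the replicate block (0.301). Over 25 settings the adjusted p ran from 0.000432 to 0.344 for *Cish*, 0.00238 to 0.306 for *Stat3*, 0.00671 to 0.478 for *Stat4* and 0.0108 to 0.634 for *Stat5b*. The *Stat5b* call was lost as well with normexp background correction (−0.38, limma adjusted p = 0.127) and with no filter on dim probes (0.0507). With quantile normalization the same 4 members were called, with *Stat3* at −0.36, and the split over all genes went from 1660 higher and 1919 lower to 2030 higher and 1352 lower. The summed level of the macrophage markers was also lower in KpCKO, at 560 to 662 against 833 to 1041 in WT M1, 405 to 469 against 583 to 639 in Con and 414 to 452 against 488 to 545 in M2. The 7 markers did not move as a set. Limma called 4 lower in M1, 1 in Con and 1 in M2, and 0 higher, where 16.0%, 2.21% and 1.93% of all genes were called. *Csf1r* was at 6.92 in KpCKO M1 against 6.81 in WT M1, and *Itgam* at 2.81 in both genotypes in Con. *Lyz2*, 1 of the 7 markers, is the gene of the lysozyme M locus that drives Cre in KpCKO. It was at 6.04 in KpCKO against 7.00 in WT Con, 5.86 against 6.36 in M1 and 5.69 against 6.37 in M2. *Cd14* was also lower in M1, at 6.31 in KpCKO against 7.64 in WT. The share of *Lyz2* in the lower sums was not counted. The part of the summed level in the member levels was not tested.

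**Figure D3:**
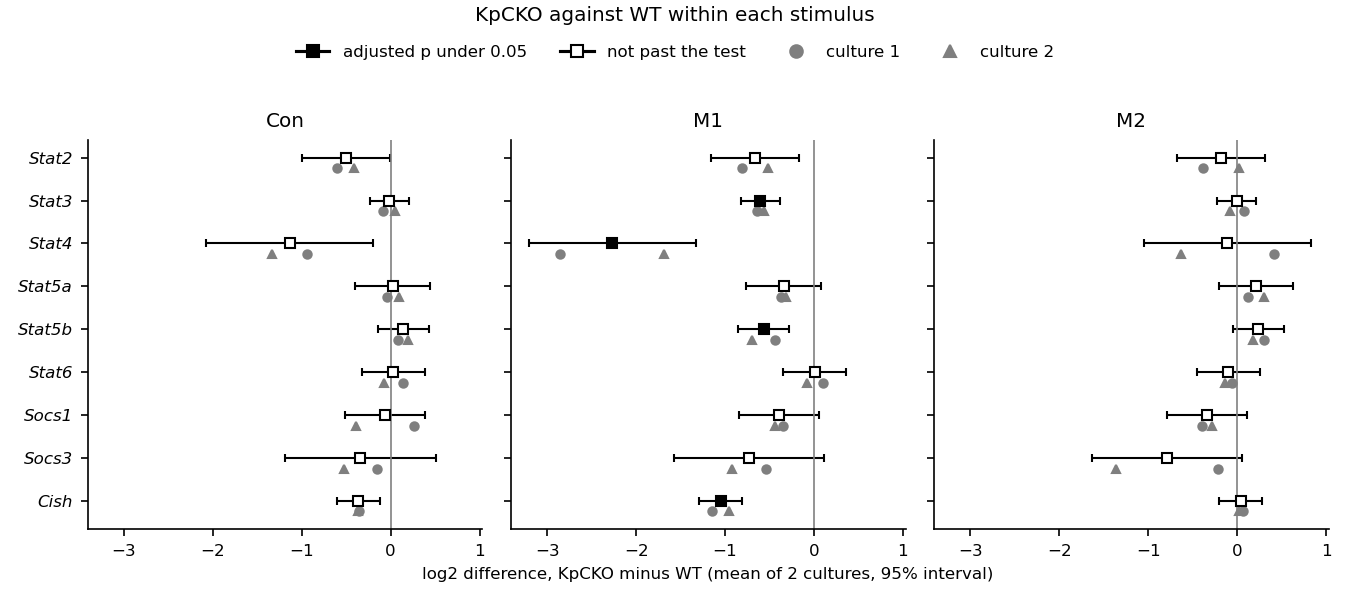
Log2 difference of KpCKO from WT (axis) for each member in Con, M1 and M2 cells. Squares are means of the 2 cultures, filled where limma's adjusted p was under 0.05, bars are the 95% interval of the moderated estimate, and circles and triangles are cultures 1 and 2. The filled squares are those of *Stat4*, *Cish*, *Stat3* and *Stat5b* in M1, all below 0, and *Stat6* lies at 0.01 in M1.

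Whether the genotype changed the response itself was tested as a difference of differences. The M1 difference from Con was lower in KpCKO than in WT for 9 of 9 members, in the mean and in each culture, which for *Stat6* means a slightly more negative value (−0.02). The share of all genes lower in this way was not counted. The median was −0.39 over the members and −0.07 over all genes tested, the latter 0.03 with quantile normalization. Over 24 alternative settings the sign changed in 5 for *Stat6*, 2 for *Stat2* and 1 for *Socs3*, and in none for the others. The test was passed by 0 of 9 members, where limma called 0.0716% of all genes and 3662 genes had an unadjusted p under 0.05. The values nearest to the threshold were −0.68 for *Cish* (95% interval −1.02 to −0.34, adjusted p = 0.139), −0.59 for *Stat3* (−0.90 to −0.27, adjusted p = 0.149) and −0.71 for *Stat5b* (−1.11 to −0.30, adjusted p = 0.163), each with an unadjusted p under 0.05. *Stat4* had −1.13 (−2.46 to 0.20, adjusted p = 0.366), with −1.91 in culture 1 and −0.35 in culture 2. For the M2 response 0 members passed, with 0.00895% of all genes called and 450 at an unadjusted p under 0.05, and *Cish*, at 0.40, was the 1 member under that unadjusted threshold. When the genotype difference in M1 was set against that in M2, 0 members passed (0.0984% of all genes called, 3892 unadjusted). *Cish* had −1.09 (adjusted p = 0.0653), *Stat5b* −0.80 (0.124), *Stat3* −0.60 (0.127) and *Stat4* −2.16 (0.158), and these 4 had an unadjusted p under 0.05. The lower levels of these genes in KpCKO M1 were therefore not shown to differ from the genotype differences in Con or M2.

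The other genes of the pathway are given in the order kinases, receptors, ligands, inhibitors and targets, with up to 3 genes named in each direction. Their counts stand beside the shares of all genes called, which were 34.5% higher and 28.7% lower in WT M1, 8.62% higher and 8.21% lower in WT M2, and 7.43% higher and 8.58% lower in KpCKO against WT M1. In WT M1 all 4 Janus kinases rose, led by *Jak2* (4.79), *Jak3* (1.70) and *Tyk2* (1.57), with a median of 1.63, and in WT M2 *Jak2* alone rose (1.98, limma adjusted p = 0.0019). In KpCKO against WT M1 *Jak2*, the kinase of the IFNγ and GM-CSF receptors, was the 1 kinase called, at −1.21 (adjusted p = 0.0118). Of 23 receptor chains, 11 rose and 7 fell in WT M1, with a median of 0.35 against 0.13 over all genes tested. *Il12rb1* (5.52), a chain of the receptor in front of STAT4, *Il15ra* (5.02) and *Il2rg* (3.25) rose most, and *Il7r* (−2.73), *Il6ra* (−2.69) and *Il10rb* (−1.31) fell most. Between the genotypes in M1, 3 receptor chains were lower in KpCKO, *Il12rb2* (−1.07), the signalling chain for IL-12, *Il2rg* (−0.70) and *Il10ra* (−0.61).

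Of 14 ligand genes 12 were tested. In WT M1 9 rose and 1 fell, with a median of 3.05, among them *Il6* by 13.17, *Il12a* by 6.50 and *Ifnb1*, which was at least 951-fold higher since it was not well above background in Con. *Il10* (−0.78) was the ligand that fell. KpCKO M1 cells had 8 ligands lower and 1 higher than WT, with a median of −1.17. The largest differences were −4.02 for *Csf3* (adjusted p = 0.015, well above background on 1 of 2 KpCKO M1 arrays), −3.21 for *Il6* (adjusted p = 0.0101) and −1.80 for *Il12a* (adjusted p = 0.0228), and *Il4* was the ligand that was higher, by 1.06 (adjusted p = 0.0488). *Il6* encodes the best known ligand in front of STAT3 and *Il12a* a chain of the ligand in front of STAT4. In Con and M2 0 ligands were called between the genotypes.

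Among 13 other inhibitors, 8 rose and 3 fell in WT M1. *Usp18*, a brake on type I interferon receptors, rose by 6.26, *Ptpn2* by 2.29 and *Ptpn6* by 1.89, while *Socs6* (−1.53), *Socs5* (−0.88) and *Pias3* (−0.76) fell. Members of the SOCS family thus went different ways, and *Socs5* was higher in WT M2 by 0.77 (limma adjusted p = 0.0203), as was *Ptpn2* by 0.97 (adjusted p = 0.00214). In KpCKO against WT M1 *Usp18* (−2.33), *Pias3* (−0.67) and *Ptpn2* (−0.44) were lower and *Ptpn1* was higher (1.08, adjusted p = 0.00735).

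Known targets were grouped by the factor they are known for. M1 joined LPS with IFNγ and no STAT was removed, so these levels do not show that the named factor acted. All 15 IFNγ targets rose in WT M1, with a median of 5.33, and in KpCKO against WT M1 3 were lower, *Nos2* (−1.50, adjusted p = 0.00458), *Irf8* (−0.54) and *Psmb8* (−0.43), with a median of −0.43. In Con, where 2.21% of all genes were called, 3 IFNγ targets were also lower in KpCKO, with a median of −0.66, in M2 1 was, with a median of −0.22, and the median difference in the M1 response was 0.40. All 11 targets tested of the complex that holds STAT2 rose in WT M1, with a median of 5.77, led by *Oasl1* (9.17), *Isg15* (6.30) and *Rsad2* (6.26). In KpCKO against WT M1 5 of them were lower, with a median of −1.61, led by *Ifi44* (−2.30), *Irf7* (−1.90) and *Oasl1* (−1.48). Untreated KpCKO cells had 2 of the 11 lower, with a median of −1.98, and M2 cells 0, with a median of −0.90, while the median difference in the M1 response was 0.39. In WT M2 6 of these 11 fell, with a median of −2.02, whereas *Stat2* itself differed by 0.12. The 13 STAT6 targets all rose in WT M2, with a median of 5.09. *Arg1* rose by 10.38 and *Pdcd1lg2* by 8.61 (well above background on 1 of 2 WT Con arrays), and *Retnla* was at least 6128-fold higher, since it was not well above background in Con. In KpCKO M2 12 of them rose, and between the genotypes in M2 *Mrc1* (−0.92) was the 1 target called.

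Of 6 STAT3 targets 4 rose in WT M1, led by *Pim1* (4.25), *Junb* (2.16) and *Bcl3* (1.05). In KpCKO against WT M1 *Etv3* (0.46, limma adjusted p = 0.0225) was higher and none were lower, with a median of 0.08, beside the −0.60 of *Stat3*. Of 6 STAT5 targets 5 rose in WT M1, led by *Cd69* (10.20), *Ccnd2* (5.03) and *Pim2* (1.40). In KpCKO against WT M1 3 were lower, *Ccnd2* (−1.82, adjusted p = 0.0276), *Osm* (−1.66, adjusted p = 0.0289), which is also one of the ligands, and *Pim2* (−0.88, adjusted p = 0.00636), with a median of −1.14, beside the −0.57 of *Stat5b* and the −1.05 of *Cish*. In WT M2 0 of the STAT5 targets passed the test, beside the 6.92 of *Cish*. The lists are described by these counts and medians only, and 0 genes of any list passed the test of a difference between the genotypes in the response.

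**Figure D4:**
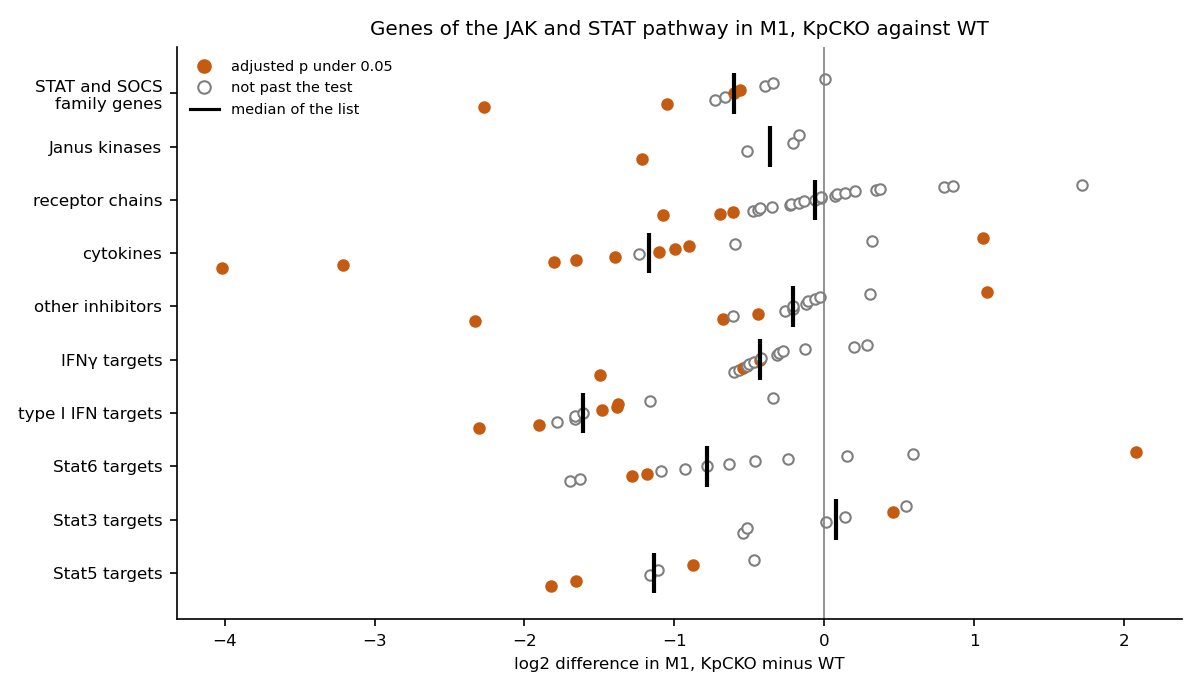
Log2 difference of KpCKO from WT in M1 cells (axis) for the genes tested of each pathway list and for the members. Each point is 1 gene, filled where limma's adjusted p was under 0.05, and vertical bars are medians of a list. Most ligand points (the row of cytokines) lie below 0, with *Csf3* at −4.02 and *Il6* at −3.21, and the STAT3 targets lie around 0.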

How the data were processed

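RNA of 12 BMDM samples was hybridized to 1-colour Agilent arrays. The authors extracted them with Feature Extraction 10.7.3.1 and deposited background-subtracted intensity values, which were not scaled between arrays, and a table of log2 values normalized with GeneSpring, of which the kind of normalization is not given in the sources used here. Here outlier spots were left out, spots of a probe averaged, and log2 intensities set relative to the 75th percentile of each array. A gene was read from its brightest probe. It was kept where both arrays of some group were well above background, and such genes were fitted with limma 3.58.1 in R 4.3.3, with 6 groups and the culture as a block (5 residual and 1.92 prior degrees of freedom), and 22354 had a Benjamini-Hochberg adjusted p, held to 0.05. Intervals are 95% and rest on these few arrays. Pairing by culture is given in the description of the series; deviations of 14458 genes correlated at 0.180 to 0.677 between groups of the same culture in 15 pairs of groups. The pathway and marker lists, and the members, were chosen with earlier results of these data known. Named genes are the members, up to 3 with the largest rise and fall past the test per list and comparison, the 3 most like each member, and *Keap1* and *Nqo1*. The fit was tested on simulated data. The alternatives changed the background correction, normalization, filter, probe rule, model, variance estimate, test and arrays, and included the authors' log2 table.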

Additional observations from a re-analysis of the deposited data

How the results depend on the processing

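Of 2286 member values recomputed under 26 other settings, 2192 stayed on the same side of the threshold, 71 lost the test, 23 gained it and 0 reversed. Among those 2192, the sign changed 49 times, each with both values short of the test. The numbers of members past the test without the replicate block were 8 and 6 for the M1 response in WT and KpCKO, 3 and 3 for M2, 3 for KpCKO against WT in M1 and 0 elsewhere. The shares of all genes called in that setting were 52.9% and 39% for M1, 7.67% and 4% for M2, and 5.33% for KpCKO against WT in M1. Leaving out 1 array gave 8 to 9 and 6 to 8 for M1 in WT and KpCKO, 2 to 5 and 2 to 4 for M2, 1 to 4 for KpCKO against WT in M1 and 0 to 2 for the genotype difference in M1 against M2, and 0 for the genotype difference in Con and in M2 and for the differences in the M1 and M2 responses. The lowest M2 count in WT, 2, came without WT Con replicate 1, and the 2 for M1 against M2, *Cish* and *Stat5b*, came without WT M1 replicate 1. With a filter on all 12 arrays, and likewise with trended and robust variances, M2 in KpCKO had 5 members and the genotype difference in M1 against M2 had 1. The filter called 15% and 0.605% of all genes in these comparisons, and the trended and robust variances 12.5% and 0.613%. Fitted on only the groups compared, M2 in KpCKO and KpCKO against WT in M1 had 0 members. That setting called 1 of 22358 and 0 of 22304 of all genes there, so the 0 is not particular to the members. For array genes the paper used a change of over 2-fold in both cultures. By that rule WT cells had 7 members higher and 0 lower in M1, and 2 higher and 1 lower in M2. Between the genotypes in M1 the rule held for 1 member, *Stat4*, with the lower level in KpCKO. The paper's methods give an unpaired t-test for data of 3 mice, and here it was applied to the arrays. The methods' t-test gave 7 and 7 for M1 and 3 and 3 for M2 at its own threshold. For KpCKO against WT it gave 4 in M1 and 1 in Con. It called 44% and 29.3% of all genes for M1 in WT and KpCKO and 21.2% and 11.5% for M2. Between the genotypes it called 12.3% in M1 and 7.25% in Con. The 4 were *Stat3*, *Cish*, *Socs1* (p = 0.0444) and *Socs3* (0.0338) by the methods' t-test, without *Stat4* (0.111) and *Stat5b* (0.306), over 2 arrays a group with no exact test able to reach the threshold. After Benjamini-Hochberg adjustment it gave 4 for M1 in WT, with 13.2% of all genes called. It gave 0 for M1 in KpCKO, M2 in WT and KpCKO, and KpCKO against WT in M1. In M2 in WT 0.00897% of all genes were called, and in the other 3 comparisons 0%. The cause of these changes was not tested. Quantile normalization moved the median of all genes in WT M1 from 0.13 to −0.08. It changed no count of members past the test except M2 in KpCKO, 4, which gained *Stat5b*. Probes in place of genes, added after seeing the data, gave the same counts. A slide block could not be fitted, since each slide held 1 stimulus, and the t-test gives no value for differences between responses. With 2 arrays a group the precision is limited, more for *Stat4* and *Socs3* than for *Stat3* and *Cish*, by their SE.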

Other observations

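The genes whose level ran most like that of each member over the 12 arrays were looked up among 14457 genes with a symbol, as a description. These Pearson correlations share the arrays, their scaling and the 6 groups, so genes that move with the same stimulus score high. *Stat2* was closest to *Smpdl3b* (r = 0.998), *Lacc1* (0.996) and *Parp9* (0.995), and *Stat3* to *Syk* (0.998), *Ccrl2* (0.996) and *Peli1* (0.996). *Socs3* was closest to *Gpr84* (0.997), *Mllt6* (0.995) and *Dpf2* (0.994), and *Stat4* to *Gfpt1* (0.994), *Vcan* (0.993) and *Slfn1* (0.991). *Socs1*, high in both stimuli, was closest to *Rnf19b* (0.989), *Slc7a2* (0.984) and *Slc30a4* (0.984), and *Cish* to *Fcgr2b* (0.982), *Rasgrp1* (0.977) and *Clip2* (0.971). *Stat5b* was closest to *Atp8b2* (0.980), *Usf3* (0.975) and *Nipsnap3b* (0.975), *Stat5a* to *Pak4* (0.976), *P2rx5* (0.953) and *Atp5pb* (0.942), and *Stat6* to *5830417I10Rik* (0.967), *Emsy* (0.956) and *Smim11* (0.947).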
